A study of Arabidopsis thaliana with 12 samples.

Results

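Transcript levels of 10 genes for core enzymes and carriers of flavonoid and anthocyanin synthesis were followed in seedlings of Arabidopsis thaliana, out of 32833 loci in the deposited tables. The genes were taken by locus identifier: CHS (AT5G13930), CHI (AT3G55120), CHIL (AT5G05270), F3H (AT3G51240), F3'H (AT5G07990), FLS1 (AT5G08640), DFR (AT5G42800), LDOX (AT4G22880), TT19 (AT5G17220, also named GSTF12) and 5MAT (AT3G29590). All 10 were present in every table and all 10 passed the filter on low values, a minimum of 1 TPM reached by 3 or more libraries. The first 6 are described here as early and flavonol steps and the last 4 as anthocyanin steps. The seedlings were 10 days old, raised under long days (16 h light, 8 h dark), and treated for 3 h. They form 4 groups, each of 3 biological replicates. Wild-type Col-0 received white light with a mock treatment, mock treatment in white light with added UV-B (5 µmol m-2 s-1), or white light together with abscisic acid (ABA, a stress hormone) at 50 µM. The fourth group was uvr8, a mutant of the UV-B photoreceptor gene UVR8, given the same UV-B dose and the mock treatment. Neither of the UV-B groups received ABA, the uvr8 allele is not named in the labels, and no uvr8 seedlings in white light or with ABA were analysed here.

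Flavonoids are built from coumaroyl-CoA and malonyl-CoA. Chalcone synthase (CHS) makes the chalcone, chalcone isomerase (CHI) closes its ring, and flavanone 3-hydroxylase (F3H) yields dihydroflavonols, which flavonoid 3'-hydroxylase (F3'H) can hydroxylate further. Here the path forks: flavonol synthase (FLS1) turns dihydroflavonols into flavonols, known as UV-absorbing screens of the leaf epidermis, while dihydroflavonol reductase (DFR) and leucoanthocyanidin dioxygenase (LDOX) lead to the red and purple anthocyanins. In Arabidopsis seedlings the flavonol branch is known to be driven by the MYB factors MYB11, MYB12 and MYB111. The anthocyanin branch is driven by complexes of MYB75 or its relatives with bHLH factors such as TT8 and the WD-repeat protein TTG1.

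The stretches before the genes are shown first, because light-regulated genes of this pathway are known to carry certain motifs. These are a G-box (CACGTG), bound by bZIP factors such as HY5, and AC elements, bound by MYB factors. Both strands were searched in the RefSeq TAIR10.1 assembly. ACCTACC, an AC element, was found in the 500 bases before the start codon of CHS, CHI, CHIL and F3H, that is 4 of the 10 genes, and in 2.16% of 27443 such windows of protein-coding genes. Counted from the start codon, the match begins at -144 in CHS and in CHIL, at -143 in F3H and at -101 in CHI. All of these matches lay within the annotated 5' untranslated region. In the sites below, each read on the strand that carries the element, capitals mark ACCTACC:
CHS (chr5:4488608-4488634, plus strand): cgtccatctaACCTACCacactctcat
CHI (chr3:20431500-20431526, minus strand): aactattgctACCTACCcttctctctt
CHIL (chr5:1563338-1563364, plus strand): aaattatgttACCTACCaccagtccct
F3H (chr3:19025256-19025282, minus strand): gtcgctagctACCTACCacggtactac

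The 300 bases before the annotated gene start held a G-box in CHS, CHIL, F3H and DFR, 4 of 10 genes, against 7.09% of 27443 windows. These windows are printed to show where the G-box stood in genes of both branches, with capitals for CACGTG and for an AC element on either strand, where the elements searched were ACCTACC (element I), ACCAACC (element II) and ACCTAAC (element III):
CHS (chr5:4488176-4488475, plus strand): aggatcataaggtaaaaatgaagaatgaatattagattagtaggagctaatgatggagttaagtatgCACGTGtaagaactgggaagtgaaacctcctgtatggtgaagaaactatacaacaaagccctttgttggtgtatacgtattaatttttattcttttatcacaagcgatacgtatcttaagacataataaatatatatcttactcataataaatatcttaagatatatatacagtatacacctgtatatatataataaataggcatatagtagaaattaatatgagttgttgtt
CHIL (chr5:1562986-1563285, plus strand): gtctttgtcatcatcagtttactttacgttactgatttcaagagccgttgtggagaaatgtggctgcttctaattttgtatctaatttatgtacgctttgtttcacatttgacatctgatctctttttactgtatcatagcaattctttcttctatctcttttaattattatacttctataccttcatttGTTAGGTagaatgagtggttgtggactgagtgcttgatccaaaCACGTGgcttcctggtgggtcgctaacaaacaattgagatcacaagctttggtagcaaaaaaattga
F3H (chr3:19024892-19025191, plus strand): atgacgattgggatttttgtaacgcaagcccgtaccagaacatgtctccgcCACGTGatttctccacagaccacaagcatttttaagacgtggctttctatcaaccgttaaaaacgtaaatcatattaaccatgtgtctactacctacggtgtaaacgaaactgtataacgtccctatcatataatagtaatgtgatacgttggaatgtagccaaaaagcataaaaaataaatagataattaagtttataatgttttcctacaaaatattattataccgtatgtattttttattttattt
DFR (chr5:17166033-17166332, minus strand): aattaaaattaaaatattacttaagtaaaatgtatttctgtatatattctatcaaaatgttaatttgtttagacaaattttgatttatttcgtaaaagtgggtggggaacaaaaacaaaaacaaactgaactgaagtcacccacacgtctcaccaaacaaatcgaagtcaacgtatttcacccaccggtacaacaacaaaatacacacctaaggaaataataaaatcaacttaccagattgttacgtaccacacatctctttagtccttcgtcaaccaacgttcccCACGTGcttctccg
Counted from the gene start, the G-box begins at -233 in CHS, -67 in CHIL, -249 in F3H and -14 in DFR. CHIL also held element III on the opposite strand at -110, printed as its reverse complement, an element seen in 2.93% of windows. In the longer window before the start codon a G-box was found in CHI, CHIL, F3H, DFR and LDOX, 5 of 10 genes against 9.34% of windows. Matches of element III in CHS and CHIL and of element II in DFR were also found there, against 4.66% and 5.47% of windows. ACGT, the core that every G-box contains, stood in 8 of 10 genes and 62.6% of windows, and CANNTG, the E-box that also contains the G-box, in 9 of 10 and 77.1%. F3'H, FLS1, TT19 and 5MAT had neither a G-box nor an AC element of these spellings in the longer window. Whether any match is bound was not tested. The 500-base window was chosen after seeing that element I was absent from the shorter one, where 0 of the 10 genes and 1.33% of windows held it.

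**Figure D1:**
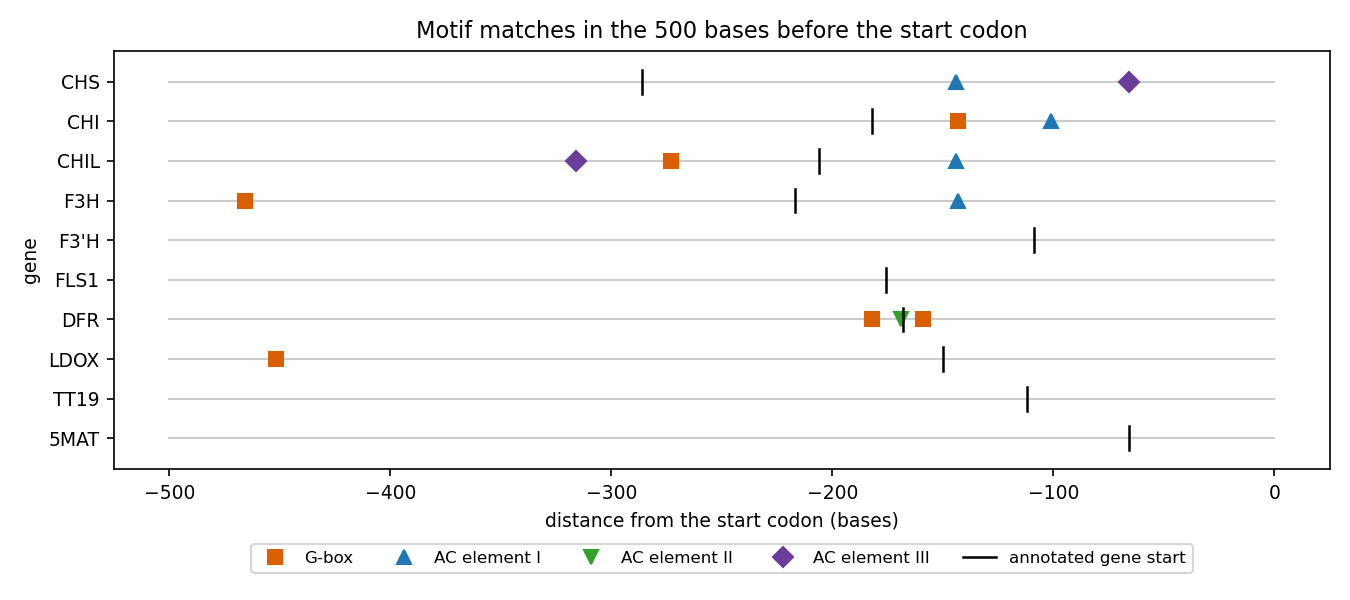
Motif matches in the 500 bases before the start codon of each gene, on either strand; the x axis is the distance of a match's first base from the start codon in bases, symbols stand for the G-box and 3 spellings of the AC element, and black ticks mark the annotated gene start. AC element I (triangles) was found in CHS, CHI, CHIL and F3H, between -144 and -101, and not in F3'H, FLS1 or the 4 anthocyanin genes.

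The values are TPM, transcript abundance per length scaled to a common total, so levels of different genes can be compared, but depth in reads is not known from them. Each library had 18557 to 19214 genes at 1 TPM or more, and no 2 of the 66 pairs of libraries were identical. UVR8 itself (AT5G63860) ranged from 20.78 to 23.61 TPM in uvr8 and from 66.88 to 107.46 TPM in the Col-0 libraries, with no overlap between the genotypes. Leaf genes were abundant, with RBCS1A between 3539.09 and 5819.11 TPM. The root markers COBL9, EXPA7 and CASP1 stayed at or below 0.81 TPM in all 12 libraries, with EXPA7 listed at 0 throughout. The protocols name whole seedlings, and with these markers so low the amount of root in the samples is not known. The root peroxidase gene RCI3 ran from 5.79 to 7.37 TPM in white light, 5.11 to 7.03 under UV-B, 9.83 to 12.66 in uvr8 and 14.84 to 19.21 with ABA, and its part in the results below was not tested.

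UV-B raised all 10 genes in Col-0, the early and flavonol steps by 12.7- to 195-fold and the anthocyanin steps by 13.6- to 43-fold, as ratios of mean TPM. The summed level of the 10 genes went from 89.2 ± 3.47 to 5370 ± 347 TPM (SD, n = 3). All 10 were called higher with limma at an adjusted p under 0.05, where 12.3% of the 19922 genes tested were called higher and 27.8% lower. All 10 were both called and raised at least 2-fold on the log2(TPM + 1) scale, as were 3.96% of the genes tested. The median log2 change was 5.96 over the 6 early and flavonol genes and 3.65 over the 4 anthocyanin genes, beside -0.15 over all genes tested. Scaling in the style of TMM, which sets most genes level, moved that overall median to -0.01 and the calls from 2451 higher and 5543 lower to 3737 and 3461, with all 10 genes still higher. In seedling samples of many cells, a change in the number of expressing cells and a change per cell cannot be told apart.

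CHS, the first step, was at 31.13, 34.27 and 28.36 TPM in white light and rose to 2633.33, 2080.04 and 2076.63 TPM under UV-B. Its level in every UV-B library was far above every white-light library, and the first UV-B library was the highest. The log2 change was 6.13 ± 0.21 (SE, adjusted p = 6.34e-10), and the gene lies on chromosome 5 at 4488476 to 4490264, plus strand, in TAIR10.1.

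CHI was nearly constant in white light (23.3, 22.65 and 23.25 TPM) and reached 528.75, 484.65 and 467.71 TPM under UV-B. Its ratio of 21.4 was the smallest among CHS, CHI, CHIL, F3H and FLS1. The change was 4.36 ± 0.12 log2 units (adjusted p = 9.94e-11; chromosome 3, 20430059 to 20431597, minus strand).

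CHIL encodes a protein of the chalcone isomerase fold that is known to enhance flavonoid production without being the main isomerase. It held 8.46, 7.89 and 9.16 TPM in white light, well below CHI, and 483.59, 568.96 and 515.3 TPM under UV-B, where its range overlapped that of CHI. The log2 change was 5.78 ± 0.13 (adjusted p = 1.92e-11; chromosome 5, 1563286 to 1565324, plus strand).

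F3H gave the largest UV-B ratio of the 10 genes, 195-fold, and ranked 3 among all genes tested for its rise on the log2 scale. Its levels were 6.1, 5.05 and 5.8 TPM in white light and 1144.58, 1112.84 and 1041.98 TPM under UV-B (log2 change 7.37 ± 0.15, adjusted p = 1.29e-11). The gene (chromosome 3, 19025192 to 19026872, plus strand) shares 1415 exon bases with the antisense RNA gene AT3G51238. That antisense gene stood at 17.81, 15.36 and 14.9 TPM under UV-B, between 1.38% and 1.56% of F3H in the same libraries, and at 0.27, 0.22 and 0.07 TPM in white light. Since the sources do not state how strand was handled, reads of the pair cannot be told apart.

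F3'H, a cytochrome P450 whose product is needed for quercetin and cyanidin types, rose least by ratio. From 1.66, 2.33 and 1.95 TPM in white light it went to 25.96, 26.55 and 22.81 TPM under UV-B, a 12.7-fold ratio and a log2 change of 3.13 ± 0.13 (adjusted p = 4.95e-09; chromosome 5, 2560328 to 2563137, plus strand). Under UV-B it stood far below F3H and FLS1, with no library of F3'H reaching any library of DFR.

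FLS1, the flavonol branch enzyme, went from 7.5, 9.83 and 8.81 TPM in white light to 703.38, 813.17 and 710.17 TPM under UV-B. The ratio was 85.2 and the log2 change 6.26 ± 0.14 (adjusted p = 2.11e-11; chromosome 5, 2803833 to 2805606, plus strand). Its 5 relatives FLS2 to FLS6 did not exceed 1.22 TPM in any of the 12 libraries.

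DFR, the branch enzyme on the anthocyanin side, went from 3.5, 3.29 and 1.79 TPM in white light to 46.34, 46.37 and 36.53 TPM under UV-B. The groups did not overlap, and the 15.1-fold ratio gave a log2 change of 3.54 ± 0.21 (adjusted p = 9.63e-08; chromosome 5, 17164093 to 17166032, minus strand). LDOX, the next step, held 4.67, 3.26 and 3.33 TPM and then 59.48, 72.93 and 57.51 TPM (log2 change 3.76 ± 0.23, adjusted p = 1.36e-07; chromosome 4, 12004726 to 12006209, minus strand). A neighbouring gene, AT4G22870, shares 364 bases of exon sequence with LDOX at 96.2% identity, and was listed at 0 in 10 of 12 libraries and at most at 1.15 TPM, so the division of reads between the pair makes the LDOX values uncertain.

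TT19 encodes a glutathione S-transferase that is known to bring anthocyanins to the vacuole. It rose most among the anthocyanin genes, from 3.23, 2.06 and 1.95 TPM to 90.83, 121.04 and 99.69 TPM, a log2 change of 4.95 ± 0.19 (adjusted p = 1.92e-09; chromosome 5, 5658416 to 5659661, plus strand). TT19 shares 108 exon bases with PSY on the other strand, a phytoene synthase gene that stood between 101.2 and 108.44 TPM in white light and between 178.36 and 205.27 TPM under UV-B. 5MAT, the anthocyanin malonyltransferase and the last step examined, held 1.07, 1.06 and 0.82 TPM and then 15.46, 12.72 and 11.92 TPM (log2 change 2.85 ± 0.16, adjusted p = 6.46e-08; chromosome 3, 11398592 to 11400332, minus strand). Its ratio of means was 13.6, more than the log2 change shows, because adding 1 TPM damps changes of genes near that level.

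**Figure D2:**
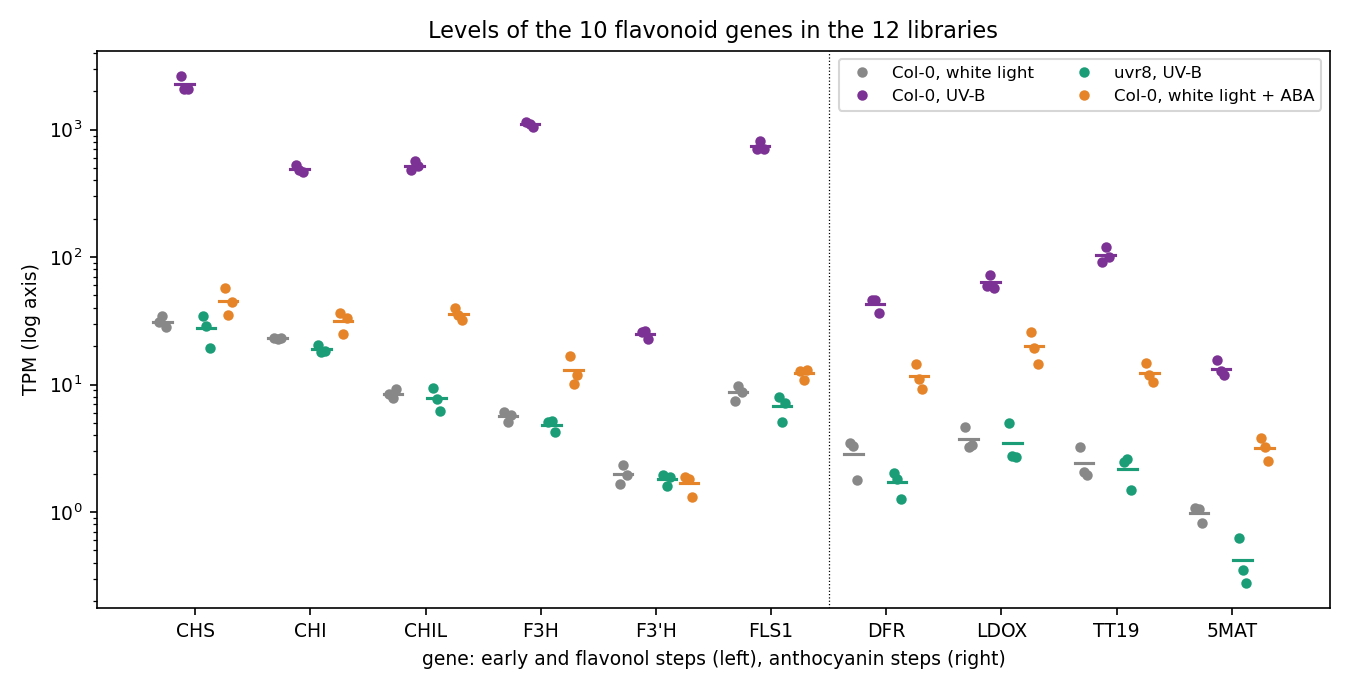
TPM of the 10 genes on a log axis in each of the 12 libraries (points, 3 per group) with the group mean (line); colours mark the groups, and the dotted line divides early and flavonol from anthocyanin steps. Every Col-0 UV-B library lies above every other library for each gene, and ABA libraries lie above white light for all genes but F3'H.

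By level, the order under UV-B in Col-0 was CHS, F3H, FLS1, CHIL, CHI, TT19, LDOX, DFR, F3'H and 5MAT. Only CHIL and CHI overlapped among neighbours in that order. In white light the order was CHS, CHI, FLS1, CHIL, F3H, LDOX, DFR, TT19, F3'H and 5MAT, and overlaps between neighbours ran from FLS1 to CHIL and from LDOX through DFR and TT19 to F3'H. CHI thus stood next to CHS in white light and below F3H, FLS1 and CHIL under UV-B.

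Under UV-B, uvr8 was set against Col-0 to see how these levels differ between the genotypes. With no uvr8 seedlings in white light, a lost UV-B response and a genotype difference present without UV-B cannot be told apart. All 10 genes were lower in uvr8, with log2 differences from -7.56 for F3H to -3.21 for F3'H, where 11.1% of all genes tested were called lower and 32.8% higher. All 10 were both called and lower by at least 2-fold on the log2 scale, as were 3.51% of the genes tested. The median difference was -6.12 over the early and flavonol genes and -3.95 over the anthocyanin genes, beside 0.195 over all genes, which scaling in the style of TMM moved to -0.002. That scaling gave 3599 higher and 3840 lower calls, from 6538 and 2218 without it, and all 10 members remained lower. This comparison shares the Col-0 UV-B libraries with the one above, so its size is set in part by the same values.

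In the uvr8 libraries under UV-B, CHS held 34.52, 28.97 and 19.24 TPM (log2 difference -6.34 ± 0.21, adjusted p = 4.95e-10). FLS1 held 7.99, 5.06 and 7.17 TPM (log2 difference -6.6 ± 0.14, adjusted p = 2.03e-11). All 3 FLS1 libraries lay near or below those of white-light Col-0. F3H held 5.08, 5.22 and 4.25 TPM, and its antisense gene at most 0.23 TPM. CHIL held 9.41, 7.77 and 6.21 TPM, and F3'H 1.95, 1.61 and 1.9 TPM. None of the early genes had a uvr8 library near those of Col-0 under UV-B. On the anthocyanin side DFR held 2.04, 1.82 and 1.26 TPM (log2 difference -4.03 ± 0.21, adjusted p = 3.13e-08) and LDOX 5.04, 2.73 and 2.71 TPM (log2 difference -3.87 ± 0.23, adjusted p = 1.11e-07). TT19 held 2.47, 2.6 and 1.48 TPM, and 5MAT 0.63, 0.35 and 0.28 TPM. The last uvr8 library was the lowest of its group for 7 of the 10 genes and for all 4 anthocyanin genes.

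When uvr8 given UV-B was set against white-light Col-0, where genotype and light differ together and cannot be told apart, limma called none of the 10 genes, while 5.11% of all genes tested were called. At an unadjusted p under 0.05 there were 4 of 10 genes, all lower in uvr8, beside 19% of all genes. Estimates were below 0 for all 10, from -0.49 to -0.08 log2 units. 5MAT differed most by ratio, at 0.43 of its white-light mean and with no overlap between the groups (log2 difference -0.49 ± 0.16, adjusted p = 0.111), and was called with a pseudocount of 0.1 (adjusted p = 0.0357). DFR stood at 0.6 of its white-light mean (-0.49 ± 0.21, adjusted p = 0.217, or 0.0413 with the replicate number as a block), and 2 of the 3 uvr8 libraries lay above the lowest white-light library. CHI was the other gene whose groups did not overlap, with 20.41, 17.91 and 18.51 TPM in uvr8 (-0.27 ± 0.12, adjusted p = 0.224). Groups did not overlap downward for 9.08% of all genes. As a share of the UV-B rise in Col-0, the mean of uvr8 under UV-B differed from white light by -0.07% for F3H to -4.55% for 5MAT.

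ABA in white light raised the anthocyanin steps by 3.24- to 5.31-fold and CHIL by 4.19-fold, while CHI, FLS1 and CHS stood 1.36 to 1.45 times their white-light means and F3'H at 0.85. Of the 10 genes 8 were called higher and none lower, with 15.2% of all genes tested called higher and 39.4% lower. The ABA libraries lay wholly above white light for 9 of 10, against 16.9% of all genes. Of the 10, 6 were both called and raised at least 2-fold on the log2 scale, against 5.89% of all genes. The median log2 change was 0.48 over the 6 early and flavonol genes and 1.85 over the 4 anthocyanin genes, beside -0.24 over all genes tested. That overall median moved to -0.01 under scaling in the style of TMM, with 4806 genes higher and 4235 lower in place of 3030 and 7851, and 9 of the 10 genes were then called higher. The white-light libraries are the same as in the UV-B comparison.

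DFR held 14.57, 11.1 and 9.25 TPM with ABA against 3.5, 3.29 and 1.79 TPM without it, a log2 change of 1.72 ± 0.21 (adjusted p = 2.76e-05). LDOX held 26.03, 19.32 and 14.4 TPM and changed by 2.11 ± 0.23 log2 units (adjusted p = 1.14e-05), the largest ratio of the 10 at 5.31. TT19 held 14.73, 11.86 and 10.51 TPM and changed by 1.98 ± 0.19 (adjusted p = 4.16e-06). None of these ranges reached the white-light libraries. 5MAT held 3.83, 3.23 and 2.51 TPM and changed by 1.07 ± 0.16 (adjusted p = 0.000151). For all 4 anthocyanin genes the first ABA library was the highest of its group and the last the lowest, and the first white-light library was the highest of the white-light group.

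Among the early steps CHIL stood apart with 39.56, 35.46 and 31.85 TPM, a log2 change of 1.94 ± 0.13 (adjusted p = 1.9e-07), which put it in the range of the anthocyanin genes. With ABA its level passed that of CHI in mean, although the groups overlapped, since CHI held 36.18, 24.75 and 33.24 TPM (log2 change 0.41 ± 0.12, adjusted p = 0.0104). F3H held 16.88, 10.06 and 11.85 TPM (log2 change 1.04 ± 0.15, adjusted p = 0.000104). CHIL and F3H are the early genes whose rise with ABA exceeded 2-fold.

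FLS1 held 12.7, 10.93 and 13.12 TPM with ABA, above every white-light library, with a log2 change of 0.45 ± 0.14 (adjusted p = 0.0182). That call was lost without the first white-light library (adjusted p = 0.0743) and without the first or the last ABA library (adjusted p = 0.0502 and 0.0601). CHS held 57.11, 34.89 and 44.28 TPM and missed the threshold (log2 change 0.5 ± 0.21, adjusted p = 0.0562). It passed under scaling in the style of TMM, at 0.75 ± 0.18 (adjusted p = 0.00412), and without the second ABA library (adjusted p = 0.0199). F3'H held 1.9, 1.83 and 1.32 TPM, within or just below the white-light range, with a log2 change of -0.15 ± 0.13 (adjusted p = 0.35) that turned to 0.02 under the same scaling.

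**Figure D3:**
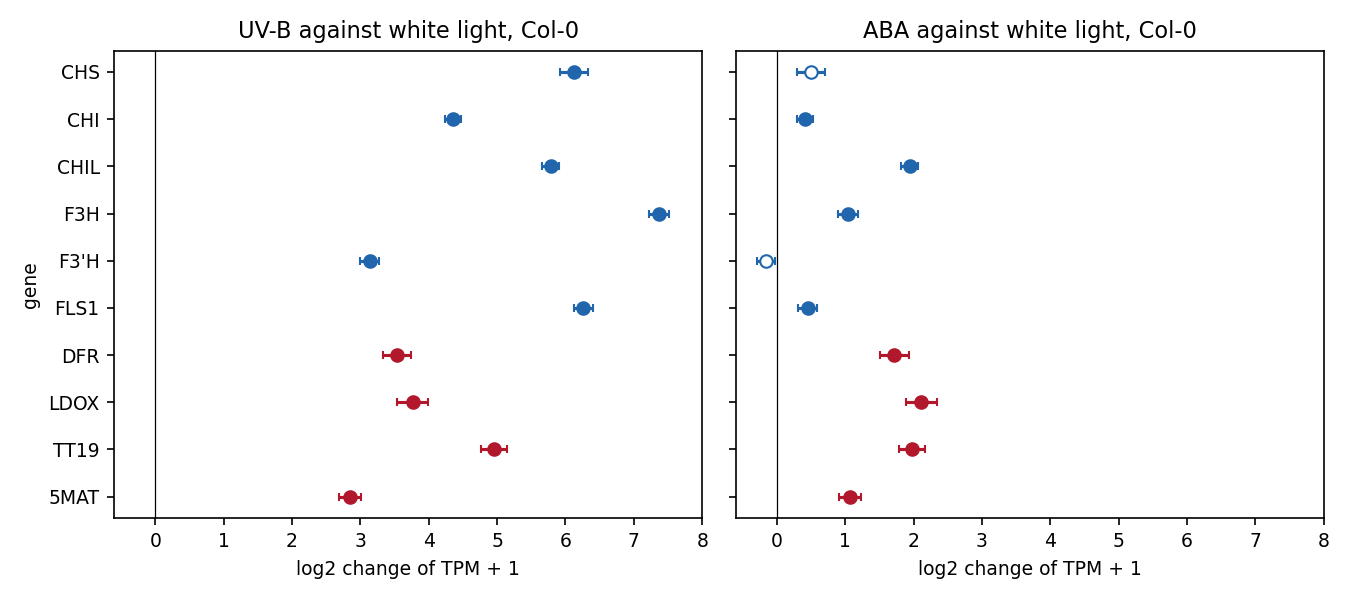
Log2 change of TPM + 1 for each gene with its SE (bars) for UV-B (left) and ABA (right) against the same 3 white-light libraries of Col-0; blue marks early and flavonol steps, red anthocyanin steps, and open circles genes not called. With UV-B the largest changes are those of F3H, FLS1 and CHS, and with ABA those of LDOX, TT19 and CHIL.

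At the transcript level, the balance of the fork was read from FLS1 and DFR, which use the same substrates. The measure was the ratio of their TPM in each library. Protein, enzyme activity and amounts of flavonols or anthocyanins were not analysed here. In white light FLS1 stood at 2.14, 2.99 and 4.92 times DFR. Under UV-B the ratio was 15.2, 17.5 and 19.4, above every other library. With ABA it was 0.87, 0.98 and 1.42, below every other library, and DFR exceeded FLS1 in 2 of the 3. The uvr8 libraries under UV-B gave 3.92, 2.78 and 5.69, of which the last lay above the white-light libraries and the others among them. On the log2(TPM + 1) scale the ratio differed by 2.72 ± 0.28 (SE, n = 3 per group) for UV-B against white light and by -1.27 ± 0.32 for ABA against white light. For uvr8 against Col-0 under UV-B it differed by -2.57 ± 0.24. Each gave p = 0.1 in a two-sided exact permutation test, the smallest that 3 against 3 libraries allow. For uvr8 under UV-B against white-light Col-0 the difference was 0.15 ± 0.34 (exact permutation p = 0.7).

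As a share of the summed TPM of the 10 genes, the 4 anthocyanin genes made up 11.2% ± 2.32 in white light (SD, n = 3), 4.17% ± 0.53 under UV-B, 10.2% ± 1.14 in uvr8 under UV-B and 25.2% ± 3.46 with ABA. Their summed level was nonetheless highest under UV-B, at 224 ± 25.7 TPM against 10.01 ± 2.31 in white light and 47.1 ± 11.3 with ABA. The early and flavonol genes summed to 5147 ± 346 TPM under UV-B, 79.2 ± 2.5 in white light and 139 ± 23.4 with ABA. So the 4 genes rose with both treatments, while their share was below white light in every UV-B library and above it in every ABA library. Under UV-B the sum was led by CHS and F3H, with means of 2263 and 1100 TPM, which act before the fork. The share thus does not compare flavonol with anthocyanin steps alone. Without LDOX, whose copy makes it uncertain, the shift in share was -4.27 percentage points in place of -7.01 for UV-B and 9.05 in place of 14 for ABA.

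**Figure D4:**
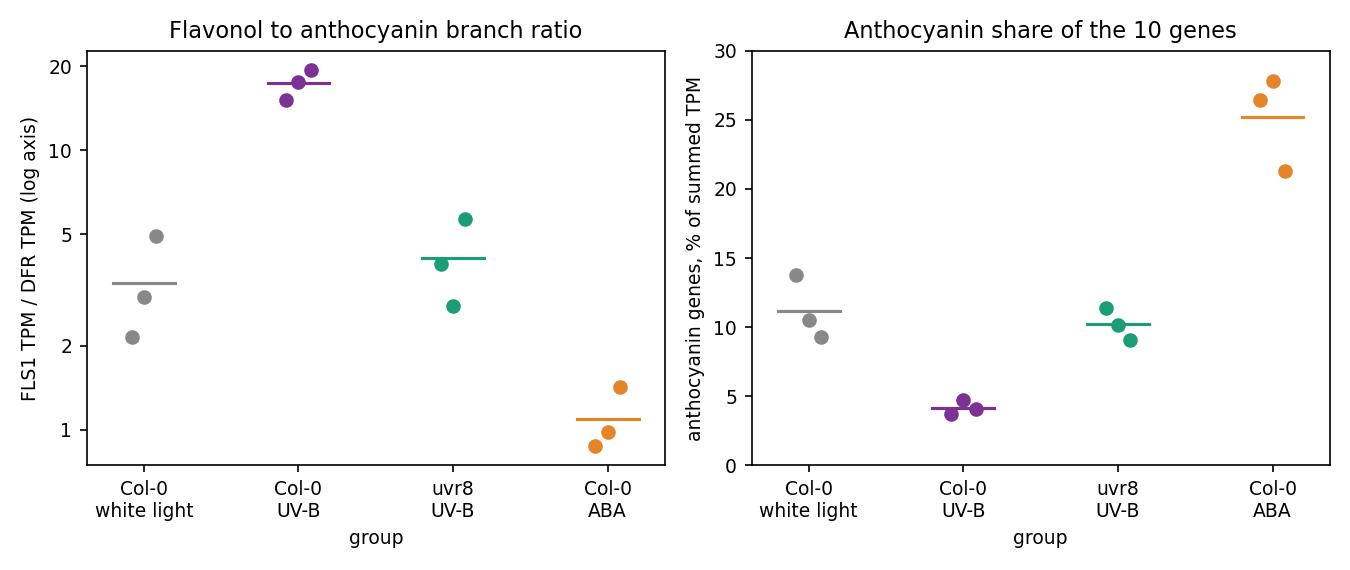
Left, FLS1 TPM divided by DFR TPM on a log axis, and right, the percent of the summed TPM of the 10 genes that belongs to DFR, LDOX, TT19 and 5MAT, in each library (points) with the group mean (line). The UV-B libraries of Col-0 have the highest ratios and the lowest shares, between 3.7% and 4.74%, and the ABA libraries the reverse, with shares between 21.3% and 27.8%.

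Genes with the most similar pattern were sought by Pearson correlation of log2(TPM + 1) over the 12 libraries among 15100 other genes with a mean of at least 5 TPM, as a description, since much of any such correlation comes from the UV-B group alone. For CHS the 5 closest outside the 10 genes were AT1G06690, annotated as an oxidoreductase (r = 0.999), AT5G62210, annotated as an embryo-specific protein (0.997), the flavonoid glucosyltransferase gene UGT78D2 (0.997), AT1G48860, annotated as a 3-phosphoshikimate 1-carboxyvinyltransferase of aromatic amino acid synthesis (0.997), and the thiolase gene KAT5 (0.996). CHI ranked 4, F3H 6 and FLS1 11 on that list, while LDOX ranked 541. For DFR the closest were UGT75C1, an anthocyanin glucosyltransferase gene (0.996), UGT79B2 (0.991), the transcription repressor gene OFP1 (0.99), UGT79B1, an anthocyanin xylosyltransferase gene (0.989), and DTX28, of a transporter family (0.984). LDOX ranked 5 and TT19 7 there, CHIL 17 and CHS 176. CHIL correlated with DFR at 0.97 and with CHS at 0.964, and was the only early gene closer to DFR than to CHS.

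The other genes of the pathway were counted from lists of known members. With UV-B all 6 flavonol decoration genes rose, led by UGT78D2 (from 14.26 ± 0.77 to 440 ± 6.91 TPM, SD, n = 3), UGT78D3, an arabinosyltransferase gene, and the rhamnosyltransferase gene UGT89C1, with log2 changes of 4.85, 4.08 and 3.81. Of 6 anthocyanin decoration genes 5 rose, led by SCPL10, a sinapoyltransferase gene, UGT79B1 and UGT75C1, by 4.18, 3.51 and 2.92 log2 units. Of 11 genes of general phenylpropanoid synthesis and precursor supply 8 rose and 3 fell, 2 of them under scaling in the style of TMM. Over all genes tested 12.3% rose and 27.8% fell with UV-B, so the share of precursor genes that fell is near the general one. The largest rises were those of 4CL3, a coumarate-CoA ligase gene, from 8.17 to 147 TPM, and of the phenylalanine ammonia-lyase genes PAL1 and PAL2, by 3.26 and 3.24 log2 units.

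All 5 genes listed as regulators of the flavonol side rose with UV-B. They include HY5 and HYH, although the G-box that factors such as HY5 bind was found in genes of both branches. In white light HY5 was listed at 0, 0.16 and 0 TPM, and UV-B brought it to 83.35, 101.31 and 92.59 TPM, while MYB12 went from a listed 0, 0.12 and 0 to 41, 37.25 and 34.36. MYB111 went from 4.11, 5.37 and 5.32 to 74.27, 87.02 and 88.98 TPM. Of 13 anthocyanin regulators 12 were tested, of which 5 rose and 1 fell, or 7 and 1 under scaling in the style of TMM. Beside these regulator counts, 12.3% of all genes tested rose and 27.8% fell with UV-B. Those that rose most were MYB90 and MYB75, by 3.35 ± 0.26 and 2.74 ± 0.2 log2 units, and TT8, by 1.49 ± 0.16.

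With ABA, MYB75, MYB90, TT8 and HY5 were called higher, as they were with UV-B in a comparison that shares the white-light libraries. TT8 rose by 2.08 ± 0.16 log2 units, to 10.93, 9.54 and 12.53 TPM, above its UV-B libraries of 9.26, 5.74 and 6.28. The gene for the MYB activator MYB75 rose to 22.84, 17.98 and 21.49 TPM (2 ± 0.2 log2 units, adjusted p = 5.25e-06). MYB111 fell from 4.11, 5.37 and 5.32 to 1.5, 2 and 1.58 TPM (-1.14 ± 0.15, adjusted p = 6.44e-05), and MYB12 did not exceed 0.38 TPM. MYB90 rose by 1.43 ± 0.26 log2 units, and HY5 rose to 3.84, 2.89 and 3.11 TPM. Of 12 anthocyanin regulators 3 rose with ABA and 6 fell, shares near the 15.2% and 39.4% of all genes. Under scaling in the style of TMM these were 5 and 4. That list holds activators and repressors, so its counts give no direction for the branch. The 6 that fell were EGL3, TTG1, CPC, LBD37, LBD38 and LBD39. The bHLH gene EGL3 (-0.68 ± 0.15 log2 units, adjusted p = 0.00266) stayed called after scaling. TTG1 (-0.49 ± 0.13, adjusted p = 0.00658) and LBD37 did not. On the flavonol list 1 of 5 rose (HY5) and 1 fell (MYB111) under both. LBD38, a repressor gene of anthocyanin synthesis, fell from 83.65, 73.02 and 80.19 to 30.38, 33.82 and 30.31 TPM.

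Of the anthocyanin decoration genes 4 rose with ABA, UGT79B1 most, by 1.69 ± 0.22 log2 units, and 2 fell, the acyltransferase genes 3AT1 and 3AT2, which were not called under scaling in the style of TMM. Of the flavonol decoration genes 2 rose, among them OMT1 by 0.57 ± 0.11, and 1 fell, which was not called after scaling. In precursor supply 6 of 11 rose and 3 fell, with the largest change in PAL3 (-1.75 ± 0.11 log2 units). Scaling changed these to 8 and 2. Beside these counts, 15.2% of all genes tested rose and 39.4% fell with ABA.

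In uvr8 under UV-B against Col-0, all 5 flavonol regulators were lower, as were 5 of 6 flavonol decoration genes, 4 of 6 anthocyanin decoration genes, 8 of 11 precursor genes and 7 of 12 anthocyanin regulators, while 2 in each of these last lists were higher. Over all genes tested 11.1% were lower and 32.8% higher. Under scaling in the style of TMM the regulator gene TTG1 was no longer called higher (0.16 ± 0.1, adjusted p = 0.232). BGLU10 of anthocyanin decoration was then called lower (-0.3 ± 0.07, adjusted p = 0.00501). UGT73C6, a flavonol glucosyltransferase gene, stood at 41.94, 42.14 and 33.68 TPM in uvr8 given UV-B, overlapping the 46.11, 35.05 and 42.26 TPM of Col-0, against 4.85 to 9.17 TPM in white light. UGT73C6 was chosen after its values were seen, as the flavonol decoration gene that was not lower. BGLU10 of the anthocyanin decoration list and HYH were also called higher in uvr8 under UV-B than in white-light Col-0. Their log2 differences were 0.52 ± 0.09 (adjusted p = 0.00791) and 1.21 ± 0.2 (adjusted p = 0.00471), where 5.11% of all genes were called. HYH held 47.28, 47.24 and 63.04 TPM there, and 17.31, 20.1 and 30.01 TPM in white light. The 4 genes of the proanthocyanidin branch, BAN, TT12, AHA10 and TT10, which serve the seed coat, did not exceed 0.8 TPM in any library. Of 13 relatives of the 10 genes 7 passed the filter, and with UV-B 1 rose (BEN1) and 1 fell (FAP2), both by less than 0.6 log2 units, beside 12.3% and 27.8% of all genes, so the counts single out nothing about the relatives.

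**Figure D5:**
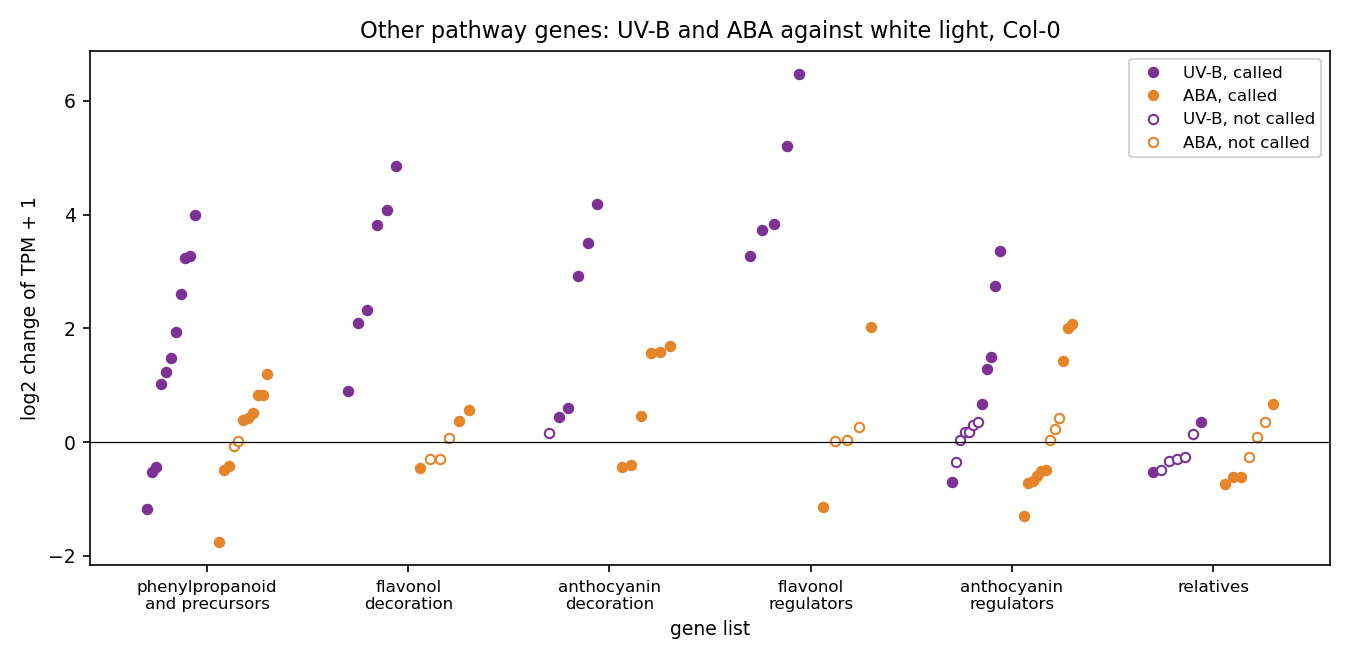
Log2 change of TPM + 1 of the other pathway genes that passed the filter, by list, for UV-B (purple) and ABA (orange) against white light in Col-0; filled points were called at an adjusted p under 0.05. All 5 flavonol regulators and all 6 flavonol decoration genes lie above 0 with UV-B. With ABA the anthocyanin decoration genes lie between -0.44 and 1.69, and the anthocyanin regulators between -1.3 and 2.08. The flavonol decoration genes lie between -0.45 and 0.57 with ABA, and the flavonol regulators between -1.14 and 2.02.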

How the data were processed

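RNA sequencing libraries of whole seedlings were made by a TruSeq protocol and read from both ends, per the labels' protocols. The authors deposited 1 table per library with 1 value per gene, read here as TPM since fractional values add up to 998197.5 to 998680.8 in each library. No source used here gives the aligner, counter or strand setting, and TAIR10 is named as the build per the submitters' processing notes. TPM keeps no depth, so the precision from read depth is unknown, and a listed 0 can stand for a failed estimate. Replicates were raised and processed separately, per the labels.

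Sample titles gave the groups. The deposited TPM were tested as log2(TPM + 1) using limma (3.58.1, R 4.3.3). A single model held the means of the 4 groups, with the variance trended on level. P-values were adjusted by Benjamini-Hochberg at 0.05 over the 19922 genes that reached 1 TPM in 3 or more libraries. The fit was tested on simulated data. FLS1 to DFR ratios were compared with an exact permutation test (scipy 1.17.1). Alternatives were TMM-style scaling, no filter, no trend, a pseudocount of 0.1, 2 groups only, the replicate block, no organelle genes, a test against a log2 change of at least 1, and each library left out. Scaling of the lists and the 500-base motif window were chosen after seeing the data. Gene positions and sequences are RefSeq's, from TAIR10.1, matched by locus identifier. Exon copies were sought with BLAST+ 2.17.0 (at least 95% identity over 150 bases). The 10 genes and the lists were chosen with earlier results of these data known. Named genes were the 10, UVR8, from each list the 3 largest called UV-B changes and the largest for ABA, and the 5 patterns most like CHS and DFR. Named outside that rule, after their values were seen, are UGT73C6, MYB75 and MYB111 with ABA, MYB12 with ABA, LBD38, 3AT1, 3AT2, PSY, the antisense gene and markers or relatives at low level. Also so named are EGL3, TTG1, CPC, LBD37 and LBD39 with ABA, TTG1 in uvr8, and HYH and BGLU10. One gene of the root marker list is not reported here.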

Additional observations from a re-analysis of the deposited data

How the results depend on the processing

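With UV-B and for uvr8 under UV-B, the log2 changes of all 10 genes kept their direction and their call in all 130 values of each comparison (10 genes under 13 alternatives). With ABA 122 of 130 values did so. F3'H turned to 0.017 under TMM-style scaling, 3 refits of FLS1 lost the call, and 4 of CHS gained it. For uvr8 under UV-B against white-light Col-0, 8 estimates turned above 0 when 1 library was left out: 3 of LDOX, 2 of TT19 and 1 each of F3'H, CHS and CHIL. The ranges over the main fit and all 13 alternatives were -0.341 to 0.026 for LDOX, -0.199 to 0.07 for TT19 and -0.155 to 0.008 for F3'H. They were -0.385 to 0.021 for CHS and -0.255 to 0.01 for CHIL. The cause was not tested. With ABA 7 to 9 members were called when 1 library was left out, and 4 with a minimum log2 change of 1. In the comparison of uvr8 under UV-B with white-light Col-0 1 member, 5MAT, was called with a pseudocount of 0.1 (adjusted p = 0.0357). Two-group fits of that comparison left 5MAT out, since it did not pass the filter there.

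Testing against a log2 change of at least 1 lowered the calls over all genes to 480 for UV-B, 494 for uvr8 under UV-B, 930 for ABA and 25 when uvr8 was set against white-light Col-0, by construction. Leaving out 1 library gave 6339 to 7626, 7096 to 8787, 9264 to 10245 and 426 to 757 calls in the same order, in place of 7994, 8756, 10881 and 1018. The FLS1 to DFR log2 difference then lay between 2.51 and 2.95 for UV-B, -2.75 and -2.37 for uvr8 under UV-B, -1.49 and -1.04 for ABA and -0.068 and 0.381 in the comparison of uvr8 with white-light Col-0. The share of anthocyanin genes shifted by -7.98 to -5.73, 5.44 to 6.58, 12.7 to 16 and -1.96 to 0.3 percentage points in the same order. Without LDOX it shifted by -4.27, 2.9 and 9.05 points in the first 3.

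Same-numbered libraries correlated in their deviations from group means by -0.13 to 0.26 over 18 pairs, over 0.1 in 7 of them, and 6 of 12 libraries correlated best with their own number. They share only a number. With the replicate block the calls were 7656, 8481, 10611 and 870, CHS was called with ABA (adjusted p = 0.025), and 1 member, DFR, was called in uvr8 against white light (adjusted p = 0.0413). In this balanced design the block cannot move differences of group means, so the FLS1 to DFR differences under it (2.72, -2.57, -1.27 and 0.15) are the same by construction.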
